A study of Haberlea rhodopensis with 10 samples.

Results

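DREB and ERF proteins are plant transcription factors that share the AP2 DNA-binding domain. A total of 280 assembled transcripts (unigenes) annotated as such factors was followed through drying and rewatering of leaves of the resurrection plant *Haberlea rhodopensis*. A unigene was taken when the part of its Swissprot description before the species field, or its Nr description where Swissprot gave none, held the words ethylene-responsive transcription factor, dehydration-responsive element-binding or AP2/ERF, and when its FPKM (fragments scaled by unigene length and library depth) was at least 1 in at least 2 libraries. Of 142473 unigenes, 375 matched by name, and 280 of these also passed the FPKM filter, as did 85267 unigenes of the whole table. The remaining 95 matching unigenes stayed below the filter, with a mean FPKM over the 10 libraries of at most 1.24, and are not described further. They included 45 with an FPKM of at least 1 in a single library, which was an F library for 16 and a D75 library for 18.

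The plants were propagated in vitro, potted in a soil, sand and gravel mixture and grown for about a year before water was withheld. Full drying took at least 8 days. RNA came from mature leaves of the rosette from 5 stages, each with a pair of libraries. These were fresh leaves under regular watering (F), leaves dried slightly to a relative water content of 75% (D75), severe dehydration to 20% (D20), the dry state (DT), and plants rewatered for a week after 10 days in the dry state (R). The treatment text gave a relative water content of 6% for DT and 90% for F and R, whereas the sample labels gave less than 5% and about 100%. At least 4 plants were used per sampling point, but how they were divided over the libraries was not given, so the p-values below measure the spread between libraries. D20 and DT are called late here, and D75 early.

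In flowering plants, DREB factors bind the dehydration-responsive element in promoters of stress genes. The DREB1 (CBF) type is known for the response to cold and the DREB2 type for drought and heat. ERF factors bind the GCC box and act downstream of the ethylene signal through EIN3, and some of them carry an EAR motif, a short stretch that turns a factor into a repressor. RAV and TEM proteins join an AP2 to a B3 domain, CRF proteins respond to cytokinin, and AP2-like proteins such as AINTEGUMENTA (ANT) act in organ growth and flower development.

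The members carried 83 different names, 259 from Swissprot and 21 from Nr, and 212 were named from an *Arabidopsis thaliana* entry. By name, 70 were numbered ERF factors (such as ERF1B, ERF3, ERF4, ERF5 and ERF12), 80 were ERF factors with a 3-digit number, 38 were RAP2 factors, 33 were DREB factors, 13 held a B3 domain (RAV1, TEM1 and relatives), 11 were CRF factors, 17 were AP2-like and 18 were others such as WIN1 and ABR1. A KEGG orthology number was given for 255 members, and for 195 of them it was the number of the EREBP-like factors, K09286. Their length ran from 200 to 3507 nucleotides with a median of 950. The median of their mean FPKM was 2.10, against 1.28 over all tested unigenes, and 56 members had a mean of at least 10. Members are not independent genes, since 162 of them shared an assembly cluster with at least 1 other member and the 280 fell into 164 clusters or single unigenes. Contigs of a cluster share sequence, so the split of fragments between them is uncertain. At the edge of the filter, the second highest FPKM was 1.02 for an ABR1-like unigene (Unigene17312) just inside and 0.990 for a RAP2-7 unigene (CL8345.Contig1) just outside. All but 14 members (5% against 6.06% of all tested) reached the minimum in libraries of more than 1 stage. For those 14 the single stage was F in 9 and D75 in 5, so these had to be high there.

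Fragments on unigenes ran from 4522835 (F replicate 2) to 12734565 per library (median 9395582.5). A unigene with 0 fragments in a library allows a share of up to 3 fragments, which is 6.63e-05% of the shallowest library, for counting error only. Reads of the D75 and D20 libraries had a different raw length from those of F, DT and R. The comparisons D20 with D75, DT with F, R with F and R with DT stay within one read length, and in the others read length and stage cannot be told apart. Of the marker unigenes of leaf mesophyll (RuBisCO small chain and chlorophyll a-b binding proteins), 53 of 55 reached an FPKM of 1, and their summed FPKM was 34729 to 46253 in F, 17849 to 24784 at D75, 459 to 722 at D20, 2918 to 3263 at DT and 31470 to 34188 in R. Markers of epidermis (16 of 16) summed to 306 to 335 in F and to 5.39 to 9.49 at D20 and DT, and those of guard cells (10 of 13) to 14.9 to 20.8 in F and 3.45 to 3.62 at DT. Root markers (7 of 7) summed to 51.4 to 75.7 in F and 1.56 to 4.12 at D20 and DT, vascular markers (10 of 10) to 13.9 to 34.8 and 1.84 to 3.66, and flower and seed markers (4 of 4) to 1.03 to 2.20 in F and 4.12 to 10.0 at D20 and DT, while no unigene matched SUC2 or 2S albumin. All these sums except that of flower and seed markers were thus lower at DT than in F, as were many members, and their part in those results was not tested. In such bulk samples, fewer cells of a type and less RNA per cell cannot be told apart.

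The pair of D75 libraries stood apart from each other in this family. All levels below are FPKM divided by the TMM scaling factor of the library, given as replicate 1 and replicate 2 of a stage. Of 211 members with a mean FPKM of at least 1, 72 (34.1%) were at least 4-fold higher in D75 replicate 2 than in replicate 1 (0.1 added to each level) and 4 were at least 4-fold lower, while over all tested unigenes of that level the shares were 13.4% and 4.83%. The median log2 ratio of replicate 2 to replicate 1 at D75 was 1.15 for the members and 0.23 for all. At the other stages between 2 and 21 of the 211 members were 4-fold higher in replicate 2. The 72 members included 10 ERF4, 8 DREB3, 7 ERF5, all 6 ERF017 of that level and 4 ERF1B unigenes. An ERF4 unigene (CL3035.Contig9) measured 8.46 and 377 in D75, an ERF5 unigene (CL18496.Contig3) 6.42 and 98.6, and an ERF017 unigene (Unigene28933) 0.208 and 36.7. In contrast, the ERF3 unigene Unigene23713 (142 and 162) and the RAP2-2 unigene Unigene47644 (37.5 and 36.8) were alike. The members together took 0.204% and 0.446% of all fragments in the D75 libraries, 0.209% and 0.221% in F, and 0.409% and 0.458% at D20. A group mean at D75 therefore rests on its second library for many members, and the D75 results are given with and without each library.

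**Figure D1:**
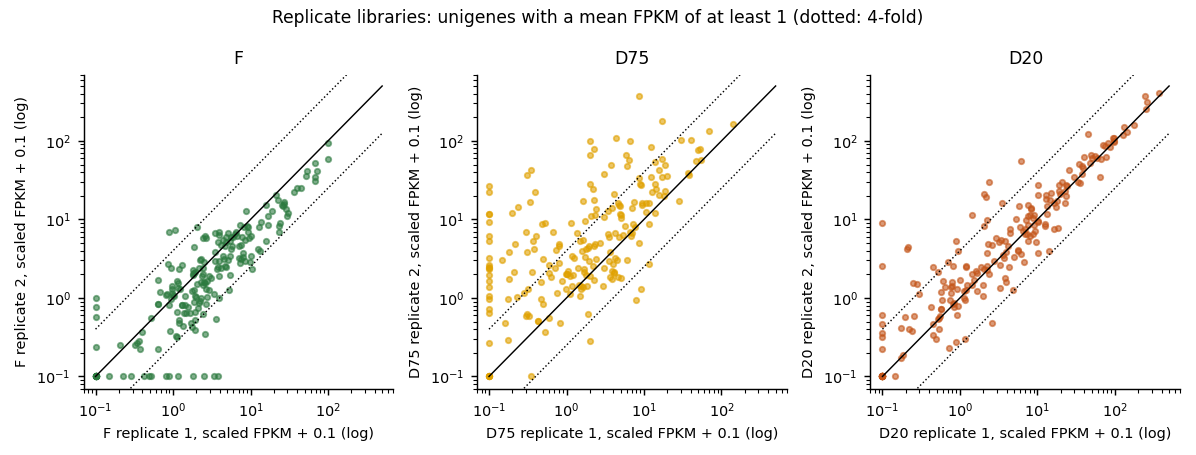
Level of each member with a mean FPKM of at least 1 in replicate 1 (horizontal) and replicate 2 (vertical) of F, D75 and D20, as TMM-scaled FPKM + 0.1 on log axes, with equality as a solid line and 4-fold differences as dotted lines. At D75, 72 of the 211 points lie above the upper dotted line and 4 below the lower one, whereas most points of F and D20 lie between the lines.

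The first question was which members responded to slight dehydration. At D75, 14 members in 7 clusters rose and 1 fell against F at an adjusted p below 0.05, which is 5.0% of the members higher where 0.671% of all tested unigenes were, and 1 of 280 lower where 1.16% of all were. The 14 were 5 contigs of one cluster named ERF008, ERF010 and RAP2-1, 4 ERF4, 2 DREB2A and 2 CRF2 unigenes and 1 TEM1 unigene. Leaving out either D75 library raised the number called higher, among the members and among all tested unigenes. The 14 stayed called in those fits, which is therefore no support for them. All 14 calls were lost when F replicate 2, the shallowest library, was left out. Leaving out any other library lowered the number, among the members and among all tested unigenes. Without a filter on low values 50 members were higher and 19 lower (3334 and 2746 of all 141376 unigenes then tested). DESeq2 gave 32 and 10 (1508 and 1945 of all 85267). The median log2 change of the members was 0.67 (0.58 with groups at 0 fragments set to their bound), against 0.05 over all tested unigenes. Both D75 libraries lay above both F libraries in 83 members (29.6%, against 19.9% of all tested) and below in 62 (22.1%, against 22.1%). Both lay above all 8 other libraries in 21 members (7.5%, against 4.77%).

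The largest group of early members came from the cluster CL11475, all 8 contigs of which were members. It was named after ERF008 (also known as DEAR3), ERF010 and RAP2-1, which in *Arabidopsis* are DREB-type proteins with an EAR repression motif. The study designed qPCR primers on the ERF008 contig CL11475.Contig7, listed there as DEAR3. They are shown because they are the only sequences of a member in the files used here, and they fix which contig was meant:
CL11475.Contig7 forward, 5′ to 3′: caaaggcaacaagacaaacc
CL11475.Contig7 reverse, 5′ to 3′: taggagccgagccagatt

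The contig CL11475.Contig7 measured 9.64 and 2.80 in F, 46.9 and 54.7 in D75, 23.6 and 19.7 in D20, 14.2 and 11.0 in DT, and 15.8 and 12.6 in R. Both D75 libraries thus stood above the 8 others, and all dried and rewatered libraries stood above F. It rose by 3.03 (log2, SE 0.51, adjusted p = 0.0178) at D75 and was 1.64 (log2, SE 0.39) lower in the late stages than at D75 (log2 -1.64, adjusted p = 0.00816). The D75 call was lost without F replicate 2 (log2 2.41), and the call of late against early held in each of the 10 fits that left out 1 library.

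RAP2-1 on CL11475.Contig8, a short contig of 208 nucleotides, measured 3.68 and 0 in F, 40.6 and 102 in D75, 17.2 and 14.2 in D20, 3.41 and 1.08 in DT, and 8.00 and 3.77 in R. Its level peaked at D75 and was back in the range of F at DT. The log2 change was 5.10 (SE 0.88, adjusted p = 0.0191) at D75, a call lost without F replicate 2 (4.26), and -3.58 (SE 0.61, adjusted p = 0.00121) between late and early. ERF010 on CL11475.Contig3 had the same order of stages, with 3.47 and 0.432 in F, 19.9 and 35.8 in D75, 9.48 and 5.00 in D20 and 5.63 and 2.75 in DT (late against early log2 -2.35, SE 0.52, adjusted p = 0.00538). Other contigs of the cluster did not share it. ERF008 on CL11475.Contig6 was highest at D20, with 64.8 and 35.0 there against 12.2 and 34.1 in D75. Summed over the contigs, the cluster rose at D75 (log2 2.77, SE 0.52, adjusted p = 0.0193) and D20 (2.69, SE 0.52, adjusted p = 0.0018), and late against early was -0.55 (SE 0.41, adjusted p = 0.321). The early peak thus belonged to single contigs, between which fragments may have been divided.

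CRF2, a cytokinin response factor, was early on 2 of its 6 unigenes. Of the 6, 5 fell at D20, 4 fell at DT and 5 were lower late than early. CL4946.Contig4 measured 1.38 and 0.541 in F, 5.25 and 6.25 in D75, 0.120 and 0.307 in D20, 0.143 and 0.0675 in DT, and 0.430 and 0.675 in R. It was the sole one of the 14 early members that was then called lower than F, by 2.17 (log2, SE 0.69, adjusted p = 0.0304) at D20 and by 3.15 (SE 0.78, adjusted p = 0.0132) at DT, calls lost without F replicate 1 or either library of the dried stage. Summed over its 4 contigs, CL4946 did not pass the test at D75 (log2 0.73, SE 0.58, adjusted p = 0.576), while the sum fell by 4.04 (SE 0.73, adjusted p = 0.0012) at D20. CL14238.Contig2 had 3.63 and 48.6 in D75, so its size rests on D75 replicate 2, although both libraries lay above F (1.44 and 0.658) and above all later ones (at most 1.43). TEM1 on CL11254.Contig7, a repressor of flowering in *Arabidopsis*, measured 6.49 and 6.71 in F, 18.9 and 48.8 in D75, 12.9 and 18.3 in D20, and 2.49 and 3.62 in DT (D75 against F log2 2.36, SE 0.47, adjusted p = 0.0311). The D75 calls of both CRF2 unigenes and of TEM1 were each lost in 8 of the 10 fits that left out 1 library, all but those without a D75 library.

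Among 18 unigenes named ERF4, those called at D75 took the name from a *Nicotiana sylvestris* protein. CL3035.Contig8 measured 1.87 and 0.934 in F, 6.38 and 56.3 in D75, 94.2 and 107 in D20, 19.0 and 16.7 in DT and 7.13 and 6.37 in R. Its level in D75 replicate 1 lay close to R, and in replicate 2 between DT and D20. It rose by 4.44 (log2, SE 0.82, adjusted p = 0.0241) at D75, 6.12 (SE 0.87, adjusted p = 0.000362) at D20 and 3.62 (SE 0.80, adjusted p = 0.00716) at DT, and late against early was 0.43 (SE 0.60, adjusted p = 0.606). Without D75 replicate 2 the D75 change of this contig was 2.18. Over the 18 ERF4 unigenes, 4 rose at D75, 10 at D20 and 7 in DT, and none fell. The most abundant, CL3035.Contig9, followed the D75 library rather than the stage, with 29.8 and 11.0 in F, 8.46 and 377 in D75, 96.0 and 108 in D20, 16.8 and 21.6 in DT and 79.6 and 60.2 in R, and was called in no comparison. Summed over its 9 contigs, CL3035 was not called at D75 (log2 3.44, SE 0.94, adjusted p = 0.0836) or DT (2.01, SE 0.89, adjusted p = 0.124) and rose at D20 (3.93, SE 0.96, adjusted p = 0.00838). The ERF4 cluster CL15045 was not called at any of these stages, with -2.07 (SE 0.81, adjusted p = 0.0857) for DT.

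**Figure D2:**
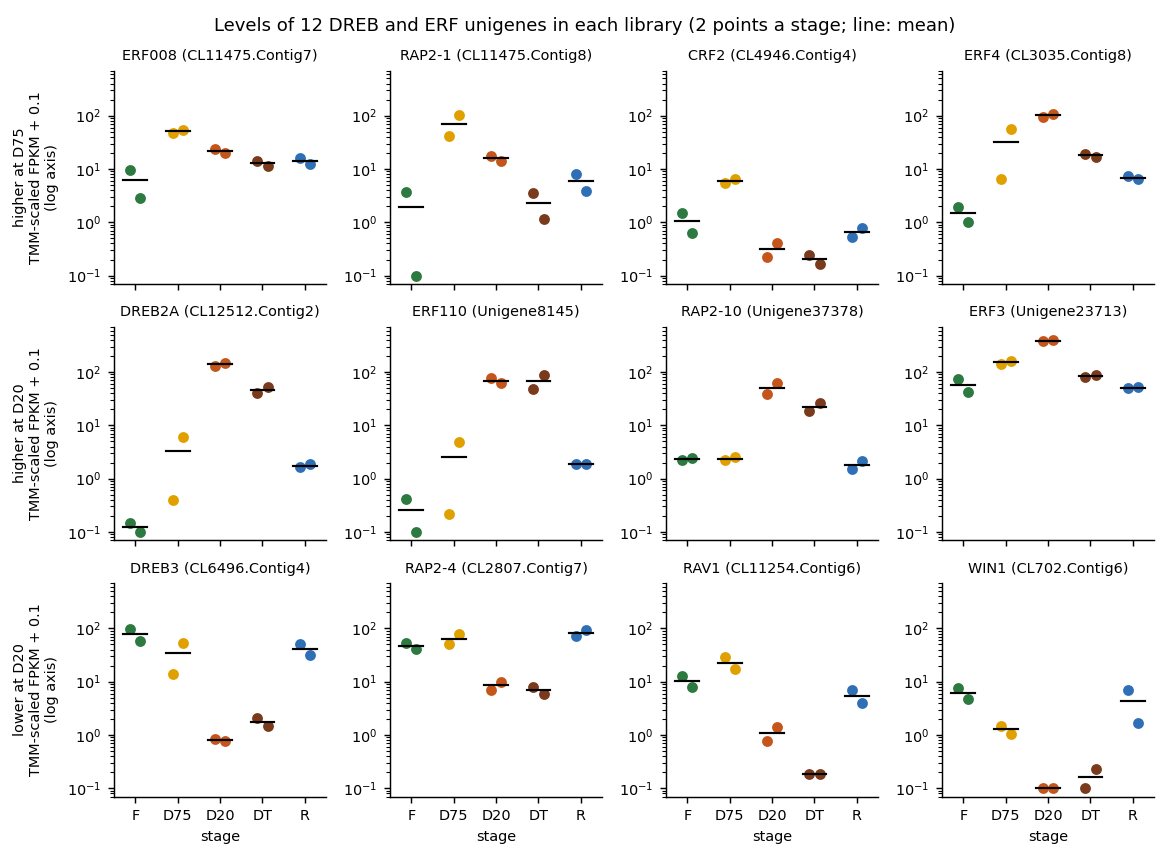
TMM-scaled FPKM + 0.1 (log axis) of 12 members in the 10 libraries, with 2 points per stage (F, D75, D20, DT, R) and their mean as a line. The upper row holds members that rose at D75, the middle row members that rose at D20 and the lower row members that fell at D20. ERF008, RAP2-1 and CRF2 peak at D75, DREB2A and ERF110 go from under 1 in F to over 40 at D20 and DT, and WIN1 is at or near 0 in the dry stages.

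At D20, which asks for the response to severe dehydration, 77 members rose (27.5%, background 14.0%) and 71 fell (25.4%, background 17.8%). At DT, 51 rose (18.2%, background 10.1%) and 58 fell (20.7%, background 12.4%). The shares called exceeded those of all tested unigenes in both directions. Of the 80 members higher at D20 or DT, 48 were called at both stages, 29 at D20 alone and 3 at DT alone, and of the 76 lower at either, 53 were lower at both. None rose at one of these stages and fell at the other. These overlaps share the F libraries. The median log2 change was -0.03 at D20 (all tested -0.33) and -0.36 at DT (all tested -0.22), or 0.00 and -0.14 with groups at 0 fragments set to their bound. At D20, 50 of the 77 higher and 30 of the 71 lower members kept their call in every fit that left out 1 library. The number lower at D20 fell without either D20 library. At DT the number higher fell without F replicate 2 or DT replicate 1, and the number lower fell without either DT library. In each of these fits the number fell among all tested unigenes too. In 39 members (13.9%, against 13.7% of all tested) the 4 late libraries lay above the other 6, and in 47 (16.8%, against 14.6%) below. By the level alone, D20 was the stage of the highest mean for 86 members, D75 for 70, F for 69, R for 39 and DT for 16. As a share this was 30.7% for D20 (22.3% of all tested), 25% for D75 (21.3%), 24.6% for F (23.1%), 13.9% for R (15.9%) and 5.71% for DT (17.4%). The order depended on the scaling, since the deposited FPKM gave F for 80, D20 for 76 and D75 for 75 members.

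**Figure D3:**
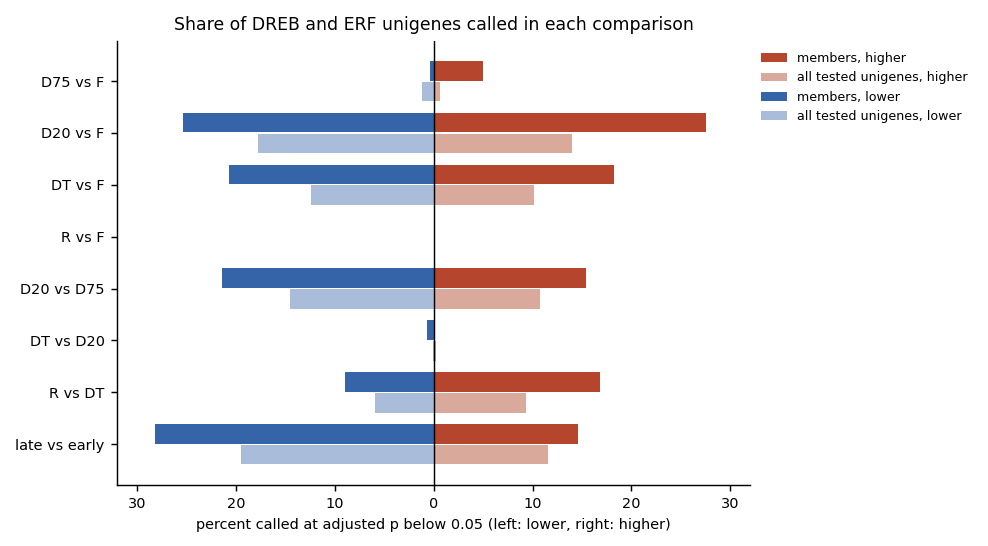
Percent of the 280 members (dark bars) and of all 85267 tested unigenes (light bars) called higher (right) or lower (left) at an adjusted p below 0.05 in each comparison. The largest member bars are 28.2% lower in the late stages than at D75 and 27.5% higher at D20 than in F, and no member is called between R and F.

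Among the members that rose furthest was DREB2A, the drought-responsive DREB activator of *Arabidopsis*. CL12512.Contig2 measured 0.05 and 0 in F, where it had 1 fragment in all, 0.299 and 6.02 in D75, 130 and 148 in D20, 41.0 and 51.2 in DT, and 1.58 and 1.74 in R. D20 and DT stood far above the other 6 libraries, and D75 and R stood above F, the first D75 library at a low level. The ratio of D20 to F was 4780 (95% counting interval 857 to 189000) and that of DT to F 1590 (285 to 62900). Within one read length, it rose from D75 to D20 by 5.46 (log2, SE 0.97, adjusted p = 0.00205) and fell from DT to R by 4.79 (SE 0.95, adjusted p = 0.00607). Its sister contig CL12512.Contig1 had 0 fragments in F and was at least 758-fold higher at D20 and at least 310-fold higher at DT. Both contigs were also called at D75 (adjusted p = 0.04 and 0.0486), calls that were lost in 8 of the 10 fits that left out 1 library. Their D75 levels, 0.261 to 6.02, stood below every D20 and DT level, and late against early was 4.67 (log2, SE 0.90, adjusted p = 0.00248) for CL12512.Contig2.

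A second DREB2-type cluster, CL7369, moved in the same way at a lower level. Its DREB2A contig CL7369.Contig4 measured 1.24 and 0.339 in F, 1.48 and 3.83 in D75, 55.3 and 64.0 in D20, 26.5 and 24.9 in DT and 2.82 and 5.13 in R (D20 against F log2 6.17, SE 0.67, adjusted p = 7.91e-05). The DREB2D contig CL7369.Contig2 reached 13.1 and 11.5 in D20 (log2 5.79, SE 0.72, adjusted p = 0.000163), and the DREB2C-like contig CL7369.Contig1, with 22.3 and 22.8 in D20 and 31.3 and 16.1 in DT, rose by 4.21 (SE 0.79, adjusted p = 0.00184) and 4.29 (SE 0.79, adjusted p = 0.00265). All 4 contigs rose at D20 and DT, and all were higher in the late stages than at D75. DREB2F differed between contigs. CL15881.Contig3 fell from 4.6 and 4.54 in F to 0 and 0.257 in D20 (log2 -5.06, SE 0.84, adjusted p = 0.000904) and had 2.39 and 1.13 in DT. Its sister CL15881.Contig2 was called higher at DT, with 41 fragments against 3 in F (12.4-fold, 95% counting interval 3.95 to 62.5). Summed over the cluster, D20 was not called (log2 -1.59, SE 0.62, adjusted p = 0.0716). Unigene2206, named DREB2E, stayed between 0 and 1.74 in every library and was called in no comparison. Its name is uncertain, since the match to a rice protein was weak (E-value 8e-08) and no other member had its KEGG number, K04079.

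DREB1-type unigenes, the cold-response type, differed between the replicates of a stage. The DREB1F unigene CL11774.Contig1 measured 0 and 0 in F, 0 and 9.08 in D75, 6.09 and 56.0 in D20, 2.45 and 1.35 in DT, and 0.615 and 1.64 in R. DREB1A (Unigene7853) had 0 and 5.96 in D75 and 2.30 and 29.6 in D20, and DREB1B (Unigene21809) had 0 and 5.16 in D75 and 0 and 8.79 in D20. DREB1A was called at D20 (176 fragments against 2, 69.7-fold, 95% counting interval 19.0 to 580), as was another DREB1F unigene, Unigene34026 (at least 45.9-fold). In each of the first 3 the second library of both D75 and D20 was the higher one. CL11774.Contig1 was called at D20 (at least 187-fold over F, adjusted p = 0.00847), but not without D20 replicate 2 or either F library, and DREB1B was not called (adjusted p = 0.0949). DREB1D (Unigene28607), with 2.25 and 11.2 in D75 and 1.08 and 0.200 in D20, was lower late than early (log2 -4.56, SE 0.75, adjusted p = 0.000932).

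ERF3, named after a repressor with an EAR motif in tobacco, included the members with the highest mean FPKM. Unigene23713 measured 72.4 and 41.3 in F, 142 and 162 in D75, 374 and 405 in D20, 81.0 and 86.2 in DT and 50.7 and 51.4 in R. The D20 libraries stood above all others, and those of DT were close to F. It rose by 2.77 (log2, SE 0.40, adjusted p = 0.000399) at D20 and was lower by 2.22 (log2 -2.22, SE 0.39, adjusted p = 0.0418) at DT than at D20. CL15585.Contig5 had the same shape, with 67.2 and 30.7 in F, 68.2 and 134 in D75, 263 and 315 in D20, 85.8 and 106 in DT and 87.1 and 74.8 in R (D20 log2 2.55, SE 0.50, adjusted p = 0.00253). CL4413.Contig1 went from 28.6 and 13.3 in F to 141 and 131 in D20 and 62.8 and 57.0 in DT, a rise of 2.69 (SE 0.45, adjusted p = 0.000896) and of 1.5 (SE 0.43, adjusted p = 0.0253), the latter lost without F replicate 2, either DT library or R replicate 2. Over the 19 ERF3 unigenes, 14 rose and 1 fell at D20, and 7 rose and 1 fell at DT. The unigene that fell, Unigene15767, had 3.74 and 5.12 in F and 0 in all D75, D20 and DT libraries.

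A difference between DT and D20 was called for only 1 further member. TEM1 on CL11254.Contig9 fell from 2.49 and 4.62 in D20 to 0.240 and 0.0758 in DT (log2 -4.43, SE 0.75, adjusted p = 0.0367). No member was higher at DT than at D20, and with 2 lower (background 0.22% higher and 0.108% lower) the comparison crosses the read lengths. Both calls were lost in 6 or 8 of the 10 fits that left out 1 library, although 72 members had an unadjusted p below 0.05 (11088 of all 85267), and DESeq2 called 1 higher and 16 lower (1054 and 922 of all). Leaving out a D75 library raised the number called between DT and D20, among the members and among all tested unigenes. The median log2 change of the members from D20 to DT was -0.63 (-0.46 with groups at 0 at their bound), against 0.00 for all.

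ERF5, named after a tobacco protein, differed between its clusters. CL6206.Contig3 measured 15.7 and 15.1 in F, 16.9 and 178 in D75, 245 and 376 in D20, 136 and 115 in DT and 45.7 and 32 in R, and rose by 4.33 (log2, SE 0.84, adjusted p = 0.00228) at D20 and 3.02 (SE 0.79, adjusted p = 0.0169) at DT. The DT call was lost without any of the F and DT libraries. CL6206.Contig1, with 6.68 and 5.99 in F, 12.1 and 84.6 in D75, 253 and 257 in D20 and 57.8 and 87.6 in DT, rose by 5.32 (SE 0.79, adjusted p = 0.000448) and 3.51 (SE 0.73, adjusted p = 0.00505). CL18496.Contig3, on the other hand, was highest in D75 replicate 2 (4.74 and 2.40 in F, 6.42 and 98.6 in D75, 0.598 and 2.79 in D20, 0.710 and 0.449 in DT, 14.0 and 12.8 in R). It was lower in the late stages than at D75 by 5.72 (log2 -5.72, SE 0.83, adjusted p = 0.000453), and the call held in each of the 10 fits that left out 1 library. Late against early was 1.02 (SE 0.66, adjusted p = 0.252) for CL6206.Contig3.

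ERF110 and ABR1 are close relatives, and ABR1 represses abscisic acid responses in *Arabidopsis*. Most unigenes of these names rose at D20 and DT, but not all reached a high level there. ABR1 on CL3657.Contig8, for example, had 11 fragments over both DT libraries and 0 in F. Unigene8145, named ERF110, measured 0.322 and 0 in F, 0.116 and 4.72 in D75, 76.3 and 62.0 in D20, 48.3 and 87.5 in DT and 1.75 and 1.78 in R (D20 log2 8.52, SE 1.38, adjusted p = 0.000759; DT 8.50, SE 1.38, adjusted p = 0.00126). Unigene47850, also ERF110, had 1 fragment in F and a ratio of D20 to F of 952 (95% counting interval 171 to 37600). Of 8 ERF110 unigenes, 7 rose at D20 and 6 in DT, and 7 were higher late than early. Both unigenes named ABR1 were contigs of the cluster CL3657, which also held ERF110 contigs, so these counts are not independent. Of the 7 unigenes named ABR1 or ABR1-like, 6 rose at D20 and 5 in DT, among them Unigene10660 with 0 fragments in F and D75, 18.9 and 23.1 in D20 (at least 77.1-fold over F), 3.37 and 5.91 in DT and 1.19 and 1.12 in R.

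RAP2-10 (DEAR4) and ERF011 (DEAR1) belong in *Arabidopsis* to the same small family as ERF008, ERF010 and RAP2-1 of the early cluster CL11475, which also holds 1 contig named RAP2-10 with no call. RAP2-10 on Unigene37378 measured 2.09 and 2.33 in F, 2.11 and 2.44 in D75, 39.3 and 62.1 in D20, 18.7 and 25.7 in DT and 1.42 and 2.01 in R. Watered, slightly dried and rewatered leaves were thus alike, and D20 and DT stood apart. It rose by 4.50 (log2, SE 0.46, adjusted p = 5.55e-05) at D20 and 3.31 (SE 0.44, adjusted p = 0.00042) at DT, and the change at D75 was 0.06 (SE 0.44, adjusted p = 0.979). ERF011 on Unigene37374 measured 1.77 and 1.97 in F, 0.274 and 5.23 in D75, 47.3 and 51.8 in D20 and 17.2 and 19.7 in DT (late against early log2 3.46, SE 0.79, adjusted p = 0.00644). Of the 8 RAP2-10 unigenes 6 rose at both D20 and DT and fell again from DT to R, and 7 were higher late than early, and of the 6 ERF011 unigenes 2 rose at D20 and DT and 2 were higher late. Late against early was thus positive and called for Unigene37378 and Unigene37374, and negative and called for ERF008 on CL11475.Contig7, ERF010 on CL11475.Contig3 and RAP2-1.

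Of the ERF017 unigenes, DREB-type in *Arabidopsis*, 2 of 7 were late. Unigene19450 measured 3.30 and 1.03 in F, 0.565 and 6.76 in D75, 178 and 159 in D20, 75.4 and 94.9 in DT and 10.7 and 11.4 in R (late against early log2 5.03, SE 0.84, adjusted p = 0.0011). Unigene28933, with 10.4 and 2.22 in F, 0.208 and 36.7 in D75, 128 and 120 in D20 and 132 and 149 in DT, rose by 4.26 (SE 1.32, adjusted p = 0.0275) and 4.45 (SE 1.33, adjusted p = 0.0312), calls lost without any library of either group. Both were at their highest in the dry stages. The other 5 were not called against F and had 4.96 to 42.2 in D75 replicate 2 against 0 to 2.13 in replicate 1. ERF014 on CL4737.Contig3 measured 44.8 and 25.2 in F, 29.8 and 102 in D75, 69.2 and 89.3 in D20, 104 and 120 in DT and 93.8 and 60.2 in R. It was called at DT alone (log2 1.68, SE 0.55, adjusted p = 0.0467), and not in 8 of the 10 fits that left out 1 library.

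ERF109, a redox-responsive factor in *Arabidopsis*, rose at D20 on all 3 of its unigenes. On Unigene34083 it had 0 in F, 0 and 0.102 in D75 and 5.37 and 3.58 in D20 (at least 18.7-fold over F), whereas CL11927.Contig1 differed between replicates, with 0 and 26.5 in D75 and 1.95 and 20.8 in D20. CRF6, a cytokinin response factor, rose late on Unigene42743, from 0.719 and 0 in F to 3.52 and 3.43 in D20 and 11.0 and 4.88 in DT (DT log2 4.29, SE 0.94, adjusted p = 0.00714), which set it apart from the CRF2 unigenes.

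Members that fell in the dry stages were mostly DREB3, RAP2-4, RAP2-7, B3-domain, WIN1, ERF118 and CRF2 unigenes. DREB3 was the most numerous DREB name, with 18 unigenes, of which none rose, 11 fell at D20 and 10 in DT. CL6496.Contig4, the most abundant, measured 99.2 and 58.8 in F, 13.7 and 54.0 in D75, 0.749 and 0.670 in D20, 2.00 and 1.37 in DT and 50.1 and 30.9 in R. It fell by 6.78 (log2, SE 0.73, adjusted p = 7.63e-05) at D20 and 5.55 (SE 0.68, adjusted p = 0.000283) at DT and rose by 4.58 (SE 0.66, adjusted p = 0.00114) from DT to R, and these 3 calls held in every fit that left out 1 library. CL3324.Contig1, also DREB3, was the single member that fell at D75, from 9.35 and 5.73 in F to 1.00 and 1.02 (log2 -2.87, SE 0.61, adjusted p = 0.0385), a call lost in 6 of these 10 fits and not made for the sum of its cluster (log2 -2.19, SE 0.54, adjusted p = 0.058). Its decline went on to 0.139 and 0.283 in D20 and 0.0823 and 0 in DT, and R was back at 9.83 and 3.27.

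RAP2-4, a factor linked to light and drought responses in *Arabidopsis*, split by contig within the cluster CL2807. CL2807.Contig7 measured 53.7 and 41.5 in F, 50 and 76.8 in D75, 6.98 and 9.79 in D20, 7.89 and 5.69 in DT and 70.5 and 91.5 in R. It fell by 2.52 (log2, SE 0.42, adjusted p = 0.000975) at D20 and 2.82 (SE 0.43, adjusted p = 0.000894) at DT, and rose by 3.58 (SE 0.44, adjusted p = 0.000533) in R over DT. CL2807.Contig8 of the same cluster stayed between 25.1 and 82.6 in all libraries (39.8 and 25.1 in F, 58.1 and 61.2 in D20, 35.5 and 33.3 in DT) and was called in no comparison. CL2807.Contig4, named RAP2-4 from Nr, fell from 52.1 and 35.8 in F to 5.85 and 7.84 in D20 (log2 -2.69, SE 0.40, adjusted p = 0.000436) and to 8.10 and 8.93 in DT (-2.38, SE 0.39, adjusted p = 0.00139). Summed over its 8 contigs, the cluster changed by -0.74 (SE 0.37, adjusted p = 0.15) at D20 and by -1.22 (SE 0.38, adjusted p = 0.0345) at DT. Unigene33488, another RAP2-4 unigene, fell from 26.6 and 16.5 in F to 8.03 and 6.07 in D20 (log2 -1.62, SE 0.50, adjusted p = 0.0271), a call lost without F replicate 1 or either D20 library.

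The RAP2-7 (TOE1) unigenes, named after a repressor of flowering, were low, at most 9.15 in any library. Of the 12 with this Swissprot name, 7 fell at D20 and 5 in DT, and all 12 were lower late than early. CL8345.Contig3 for example had 2.00 and 1.93 in F, 0.458 and 0.659 in D75, 0.0536 and 0.0549 in D20, 0.0636 and 0.0603 in DT and 2.05 and 1.02 in R. RAP2-2, an oxygen-sensing factor of the hypoxia response, moved the other way within a narrow range. Unigene47644 measured 101 and 93.3 in F, 37.5 and 36.8 in D75, 86.1 and 84.0 in D20, 76.1 and 95.8 in DT and 92.4 and 57.0 in R. It was lowest in the D75 libraries and was called higher late than early (log2 1.18, SE 0.35, adjusted p = 0.0229), a call lost without D75 replicate 1, either D20 library or DT replicate 2, and it was not called against F at any stage.

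B3-domain factors had their lowest summed level in the dry state. RAV1 on CL11254.Contig6, a growth regulator, measured 12.9 and 7.83 in F, 28.3 and 16.8 in D75, 0.669 and 1.29 in D20, 0.0883 and 0.0836 in DT and 6.74 and 3.93 in R. The 4 late libraries lay below all others and the D75 libraries above. Against D75, the late stages were lower by 6.23 (log2 -6.23, SE 0.47, adjusted p = 1.17e-05), and against F the change was -3.40 for D20 (SE 0.53, adjusted p = 0.000583), with -6.77 for DT (SE 0.71, adjusted p = 0.000152). Of 13 B3-domain members, 6 fell at D20, 8 at DT and 9 between early and late, and 8 rose from DT to R, with none moving in the opposite direction in these comparisons. Their summed level was 42.2 and 48.8 in F, 69.1 and 117 in D75, 32.2 and 48.5 in D20, 5.27 and 8.50 in DT and 44.3 and 33.2 in R, with D20 overlapping F and the lowest values in the DT libraries. The sum over the contigs of CL11254 was 0.40 at D20 (log2, SE 0.38, adjusted p = 0.442) and fell by 2.24 (SE 0.41, adjusted p = 0.00189) at DT.

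WIN1, an activator of wax and cutin synthesis, fell in all 3 of its unigenes at D20 and DT. CL702.Contig6 measured 7.44 and 4.57 in F, 1.38 and 0.959 in D75, 0 and 0 in D20, 0 and 0.132 in DT and 6.83 and 1.58 in R. ERF12, a repressor with an EAR motif, fell on Unigene14905 from 30.3 and 12.1 in F to 1.06 and 0.845 in D20 and 1.40 and 0.133 in DT (D20 log2 -4.46, SE 0.96, adjusted p = 0.00416), and was back at 27.3 and 9.69 in R. Of the 12 ERF118 unigenes, 6 fell at D20 and 4 in DT, and none rose. The most abundant of them, Unigene47262, had 26.7 and 15.7 in F, 8.43 and 33.5 in D75, 3.22 and 2.56 in D20, 5.25 and 5.38 in DT and 29.8 and 37.0 in R (DT log2 -2.0, SE 0.55, adjusted p = 0.0218, lost without F replicate 1 or either DT library). Organ-growth factors named ANT were low, and 2 of 8 were lower at D20 and DT. CL3858.Contig2 had 1.79 and 4.37 in F and 0 at D20 and DT, and 1.53 and 0.916 in R.

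**Figure D4:**
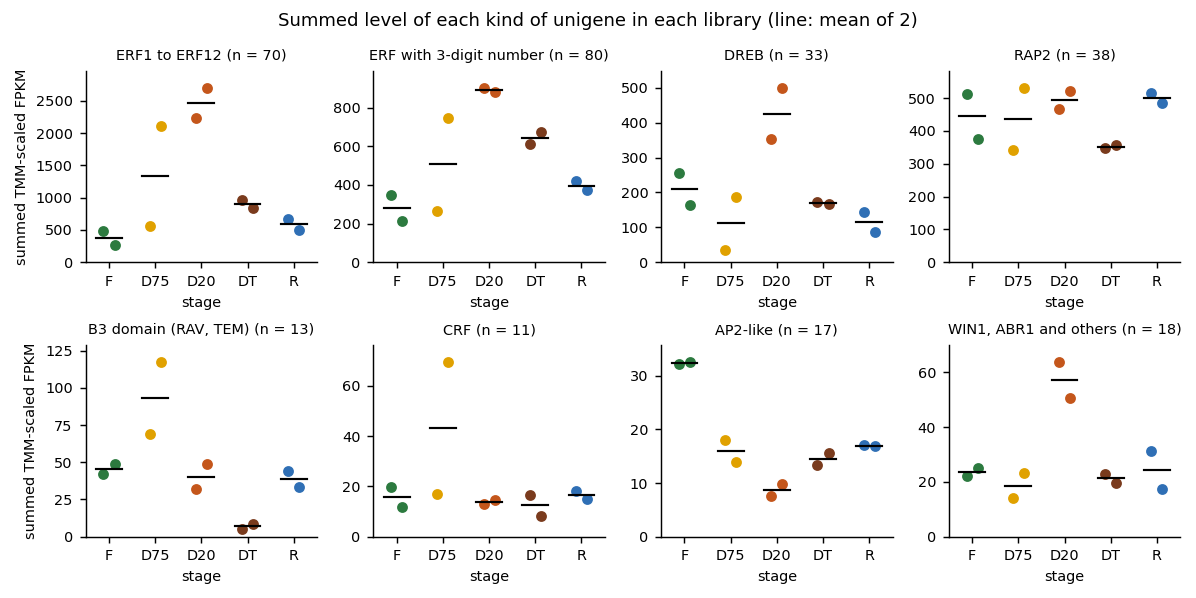
Summed TMM-scaled FPKM (linear axis from 0, a scale for each panel) of the 8 kinds of members in the 10 libraries, with 2 points per stage and the mean as a line. Numbered ERF members sum to 2226 and 2696 in D20 against 479 and 273 in F and 566 and 2104 in D75, and B3-domain members sum to 5.27 and 8.50 in DT.

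The comparison of late with early stages set the mean of D20 and DT against D75. In it, 41 members were higher late (14.6%, background 11.6%) and 79 lower (28.2%, background 19.5%), with a median log2 difference of -0.89 (-0.67 with groups at 0 at their bound) against -0.42 over all tested unigenes. Of the 41, 30 kept the call in every fit that left out 1 library, and of the 79, 55 did. Leaving out D75 replicate 2 raised the number higher, and leaving out D75 replicate 1 lowered it, among the members and among all tested unigenes. The number lower fell among the members and rose among all tested without replicate 2. Without replicate 1 it rose among the members and fell among all tested. The members higher at D20 or DT than in F, 80 in 49 clusters, split into 39 that were also higher late than early, 2 that were lower and 39 with no call. The 14 early members split into 6 that were lower late than early (ERF008 and ERF010 contigs, RAP2-1, both CRF2 unigenes and TEM1), 2 that were higher (both DREB2A contigs) and 6 with no call (4 ERF4 and 2 ERF010 unigenes). Both of these splits use libraries that chose the members, so they are given as a description. Among those lower late than early, 49 were also lower than F at D20 or DT and 25 were called against F at no stage of drying.

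**Figure D5:**
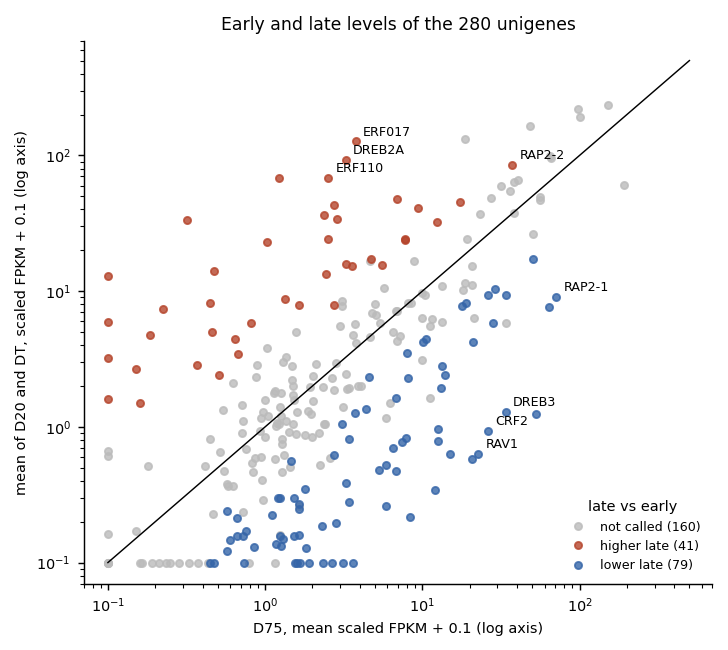
Mean TMM-scaled FPKM + 0.1 of each of the 280 members at D75 (horizontal) and over D20 and DT (vertical), on log axes, with equality as a line and colours for the call of late against early. DREB2A, ERF110 and ERF017 lie above the line among the 41 called higher, and RAV1, DREB3, CRF2 and RAP2-1 below it among the 79 called lower.

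Within one read length, D20 against D75 gave 43 higher (15.4%, background 10.7%) and 60 lower (21.4%, background 14.5%). All 4 DREB2A unigenes were among the 43, and DREB3 on CL6496.Contig4 (log2 -5.56, SE 0.70, adjusted p = 0.000345), RAV1 on CL11254.Contig6 (-4.54, SE 0.54, adjusted p = 0.000248) and CRF2 on CL4946.Contig4 (-4.73, SE 0.67, adjusted p = 0.000611) among the 60. Leaving out either D20 library lowered both numbers, and leaving out D75 replicate 2 raised the number higher. Both shifts were seen among the members and among all tested unigenes.

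After rewatering, 47 members were higher (16.8%, background 9.3%) and 25 lower (8.93%, background 5.96%) in R than at DT. Those higher included the DREB3, RAP2-4 and B3-domain unigenes above, and those lower included DREB2A, ERF110 and RAP2-10. The counts moved with single libraries, among the members and among all tested unigenes alike. Leaving out a DT or R library lowered both numbers, and leaving out a D75 library raised both. Without either D20 library the number lower fell in both sets. Between R and F no member was called (background 0.0293% higher and 0.00938% lower by edgeR), although 55 members (19.6%) had an unadjusted p below 0.05, against 8.75% of all tested. DESeq2 called 3 members higher and 1 lower (412 and 216 of all 85267). Leaving out a D75 library brought calls between R and F among the members and more of them among all tested unigenes. DREB2A on CL12512.Contig2 for instance was at 1.58 and 1.74 in R against 0.05 and 0 in F (log2 5.59, SE 1.46, adjusted p = 0.281), and ERF017 on Unigene19450 at 10.7 and 11.4 against 3.30 and 1.03 (log2 2.31, SE 0.82, adjusted p = 0.466).

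Other genes of the pathway were counted from lists of names. Of 87 tested unigenes of ethylene receptors and signalling, 4 rose at D75, 24 rose and 9 fell at D20, and 9 rose and 4 fell at DT. Of all tested unigenes 0.671% rose at D75, 14.0% rose and 17.8% fell at D20, and 10.1% and 12.4% at DT. The 4 tested unigenes named ethylene receptor went against the pooled count, with 0 higher and 3 lower at D20 (median log2 -2.48). EIN3-binding F-box proteins mark the ethylene regulator EIN3 for breakdown. Of their 10 tested unigenes, 3 rose and 0 fell at D75, and 4 rose and 1 fell at D20. Their median log2 change against F was 1.713 at D75 but -0.585 at D20, and from D75 to D20 0 rose and 4 fell. EBF1 on CL8094.Contig3, which rose at both, went from 8.27 and 12.2 in F to 43.3 and 102 in D75 and 58.4 and 86.4 in D20 (adjusted p = 0.0187 and 0.00114). EBF2 on CL8725.Contig4, a contig that the study's primer table calls EBF1, had 15.2 and 27.8 in F, 68.9 and 65.3 in D75 and 2.93 and 10.7 in D20, and was called at neither stage against F. Of 27 tested unigenes of ethylene synthesis, 7 rose and 8 fell at D20, and the most abundant, an ACC oxidase (CL10894.Contig3), went from 3.81 and 3.48 in F to 2.55 and 88.5 in D75 and 745 and 1053 in D20 (log2 7.93, SE 1.33, adjusted p = 0.000956). Known targets of DREB factors, dehydrins and galactinol synthases, rose at D20 in 12 of 18 tested and at DT in 9 of 18 (14.0% and 10.1% of all tested), with a median log2 change of 4.27 and 2.05. At D20, 1 fell, and between early and late 7 rose and 4 fell. Of 6 tested defensins and basic chitinases, known targets of ERF factors, 1 rose at D20 and DT. The most abundant of them, a defensin-like unigene (CL17492.Contig1), had 1251 and 490.4 in F and 1365 and 2386 in D20 and was called at no stage against F. Regulators of DREB proteins (45 tested) had 7 higher and 4 lower at D20, against 14.0% and 17.8% of all tested unigenes. Of 15 named ICE1, 5 were higher and 3 lower. The most abundant of the 45 regulators, CAMTA2 on CL5605.Contig1, had 8.38 and 12.2 in F, 15.6 and 18.7 in D75 and 6.20 and 4.88 in D20. Galactinol synthase 1 on CL2862.Contig8, an enzyme of the raffinose path and the most abundant of the DREB targets, had 593 and 425 in F, 3887 and 470 in D75 and 293 and 308 in D20.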

How the data were processed

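RNA from 10 leaf libraries (5 stages, 2 each) was sequenced and assembled into unigenes by the authors, who deposited fragment counts and FPKM per unigene and library. FPKM recomputed from the deposited counts and lengths agreed within 5e-05. Here the counts were scaled by TMM and tested with edgeR 4.0.16 (quasi-likelihood, 1 coefficient per stage, all libraries) in R 4.3.3 over 85267 unigenes that reached an FPKM of 1 in 2 or more libraries. P-values were adjusted by Benjamini-Hochberg over all of them and called below 0.05. Log2 changes come from that fit. Printed levels are the deposited FPKM divided by the TMM factor. DESeq2 1.42.0 and limma 3.58.1 on log2(FPKM + 1), other filters, scaling, left-out libraries, sums per cluster, a replicate block and the study's thresholds (fold of 2, adjusted p of 0.001) were alternatives. Named by rule were, per comparison with F and for late against early, the 4 most abundant called members in each direction (1 per cluster and name), the 10 most abundant members, the most abundant of each DREB name, the primer target and the top unigene of each other list. Others were chosen after their values were seen. Members and lists were chosen with earlier results of these data known. Replicates differed beyond counting noise at every stage (chi-square per degree of freedom 10.9 to 57.0). The fit was tested on simulated counts, where it found most of the large changes but few of the smallest ones set. There all unigenes had the same spread, and changes were set at D20 alone and not in unigenes with few fragments. The outcome therefore does not cover the D75 calls or members with few fragments. Intervals and floors cover counting error only. In the deposited tables, 6 lines were emptied and not analysed here.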

Additional observations from a re-analysis of the deposited data

How the results depend on the processing

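The number of members called moved by over 1.5 times under these settings. The balance of higher and lower members turned with limma at D75, to 19 and 30, and at D20, to 68 and 81. It also turned in some fits that left out 1 library, for D75 against F, DT against F, D20 against D75 and late against early. At D75 against F (14 higher and 1 lower), median-of-ratios scaling gave 2 lower, no filter 50 higher and 19 lower, edgeR's own expression filter 8 higher, DESeq2 32 higher and 10 lower, limma on log2(FPKM + 1) 19 higher and 30 lower, and the study's thresholds 0 and 0. These thresholds gave 27 higher and 16 lower at D20, 7 and 8 at DT, 7 and 5 for D20 against D75, 3 and 1 for R against DT, and 8 and 18 for late against early. For R against F (0 and 0), no filter gave 9 higher and 2 lower, DESeq2 3 and 1, and limma 1 lower. For DT against D20 (0 higher and 2 lower), no filter gave 1 and 24, DESeq2 1 and 16, limma 1 lower, sums per assembly cluster 9 lower and the study's thresholds 0 lower.

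Leaving out 1 library at a time gave 0 to 66 higher and 0 to 40 lower for D75 against F, 52 to 101 and 32 to 83 for D20, 23 to 62 and 27 to 85 for DT, 0 to 25 and 0 to 7 for R against F, 29 to 93 and 19 to 84 for D20 against D75, 0 to 3 and 0 to 50 for DT against D20, 13 to 80 and 7 to 52 for R against DT, and 34 to 77 and 65 to 96 for late against early. The cause was not tested.

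Over all tested unigenes, same-numbered libraries of different stages had correlations of -0.176 to 0.091 in their deviations. How the plants were divided over the libraries was not given, so these values do not settle whether samples were paired. A replicate block gave 12 higher and 1 lower for D75 against F, 78 and 67 for D20, 52 and 55 for DT, 0 and 0 for R against F, 0 and 1 for DT against D20, and 40 and 73 for late against early.

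Each stage had 2 libraries, and those of D75 differed most. Read length differed between D75 and D20 and the other stages. The split of fragments between contigs of 1 cluster is uncertain.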
